A study of Drosophila melanogaster with 15 samples.

Results

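The genes described here are 48 Drosophila melanogaster genes of axon guidance: the beaten path (beat) family with 14 genes, the sidestep (side) family with 8, 15 classic guidance cues and receptors, and 11 adhesion molecules and other guidance proteins. They were picked by symbol from a list drawn up with earlier results of these data known, and the rule itself uses no measured value. Of the 48, 46 matched an identifier among the 17559 of the count tables. Sema5c and Fas1 did not match and were not analysed here. The beat family member beat-IIIa had 0 counts in all 15 libraries, and the exons of the annotation give all of its bases also to CG34106, which was at 0 as well. The other 45 genes were tested in each comparison, 13 of the beat family, 8 of the side family, 14 of the classic cues and receptors and 10 of the adhesion group.

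The libraries are RNA-seq of mushroom body nuclei from male flies, isolated by INTACT, in which a tagged nuclear envelope protein made in chosen cells serves to pull out their nuclei. Bap60 is a subunit of the SWI/SNF (BAP) chromatin remodelling complex, and the study set its knockdown against a control at an early and a later adult age. Mature knockdown flies, 1 to 5 days after eclosion, gave 5 libraries and carried UAS-unc84::GFP, the driver R14H06-Gal4 and the RNAi transgene UAS-Bap6032503. Mature control flies gave 5 libraries and carried the same tag and driver with UAS-mCherryRNAi. Juvenile knockdown flies and juvenile control flies had those same genotypes and were taken 0 to 3 h after eclosion, with 2 and 3 libraries. Every group therefore carries the Gal4 driver, the GFP tag and an RNAi transgene, so none is untreated, and the tag is made only where R14H06-Gal4 acts.

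Axons are steered by surface receptors that read attractive and repellent cues, and many of the same proteins later help to choose and hold synaptic partners. Beat and Side proteins are immunoglobulin superfamily members that bind each other across cells. In the embryo the Side protein on the path of motor axons is read by Beat-Ia on those axons. Slit repels axons through Robo receptors, Netrins act through Frazzled and Unc-5, and semaphorins through plexins. In the mushroom body, the centre of olfactory learning, the axons of Kenyon cells form lobes whose branching and pruning need such surface proteins.

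Libraries held between 17447070 and 37563455 gene counts in mature knockdown, 18173548 and 70495790 in mature control, 45547974 and 53143845 in juvenile knockdown, and 37879789 and 45731087 in juvenile control. The biological coefficient of variation common to all genes was 0.221 in the fit of mature libraries, over 9175 genes. It was 0.847 in the fit of juvenile libraries, over 11739 genes. The 2 fits kept different genes, so these values do not compare the ages gene by gene. For the members, the median standard error of the log2 knockdown change was 0.11 in mature and 0.14 in juvenile flies. Bap60 averaged 11.2 ± 2.69 CPM (gene counts scaled to a common library size and composition) in mature knockdown libraries and 17.3 ± 2.61 CPM in mature control libraries (SD, n = 5 each; two-sided exact permutation p = 0.0079, the smallest that 5 against 5 can give). In juvenile flies it averaged 6.33 ± 1.84 CPM in knockdown (n = 2) and 9.49 ± 3.76 CPM in control (n = 3), with an exact permutation p = 0.3 where the smallest possible is 0.1. All 15 Kenyon cell markers were detected, with summed levels of 15126 to 20501 CPM in mature knockdown, 13266 to 19591 CPM in mature control, 11944 to 12479 CPM in juvenile knockdown and 12918 to 18514 CPM in juvenile control. RNA of other cell types was present too: photoreceptor markers, 12 of 13 with counts and Arr2 at 0, summed to between 3152 and 11337 CPM over all libraries, and muscle markers, with TpnC4 at 0, to between 4057 and 24294 CPM. How reads were assigned to genes is not fully given. A marker at 0, here or in the lists below, is therefore not taken to show that its RNA was absent. The labels do not say whether libraries of a group came from separate groups of flies, and the p-values here speak of the spread among libraries, which may be technical. In such bulk samples fewer cells of a type and less RNA per cell cannot be told apart.

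The median member of each family stood well above the median gene tested at both ages. Levels were compared between genes only as CPM per kilobase of exon. On that scale the median side gene stood at 48.9 in mature knockdown, 47.7 in mature control, 88 in juvenile knockdown and 66.4 in juvenile control. The median beat gene stood at 28.8, 26.3, 46.9 and 35.6 CPM per kilobase in those groups, the median classic cue or receptor at 30.7, 27.7, 37.5 and 37.7, and the median adhesion gene at 60.9, 56.6, 66.3 and 60.5. The median over all genes tested lay between 3.8 and 4.37 CPM per kilobase in the 4 groups.

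Lar, a receptor tyrosine phosphatase, was the highest member in every group, with 184 ± 16.9 CPM per kilobase in mature knockdown and 177 ± 23.8 in mature control (SD, n = 5 each). Ten-a, a teneurin, and Sema1a, a transmembrane semaphorin, came next at 157 ± 24.2 and 128 ± 16.4 CPM per kilobase in mature control. The highest side gene, side-VI, followed at 116 ± 18.1 CPM per kilobase there, then side-II at 101 ± 19.4 and side-III at 99.6 ± 15.1. Side-VI, side-II and side-III differed by less than their spread. Most beat genes lay lower: beat-VI led with 74.5 ± 8.1 CPM per kilobase in mature control and beat-VII had 49.6 ± 5.38, while beat-Va had 10.6 ± 2.05. At the low end were side-IV with 8.46 ± 0.833, robo2 with 7.02 ± 1.39 and NetA, a secreted Netrin, with 2.45 ± 0.354 CPM per kilobase; NetA stood below every other detected member in each library group.

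**Figure D1:**
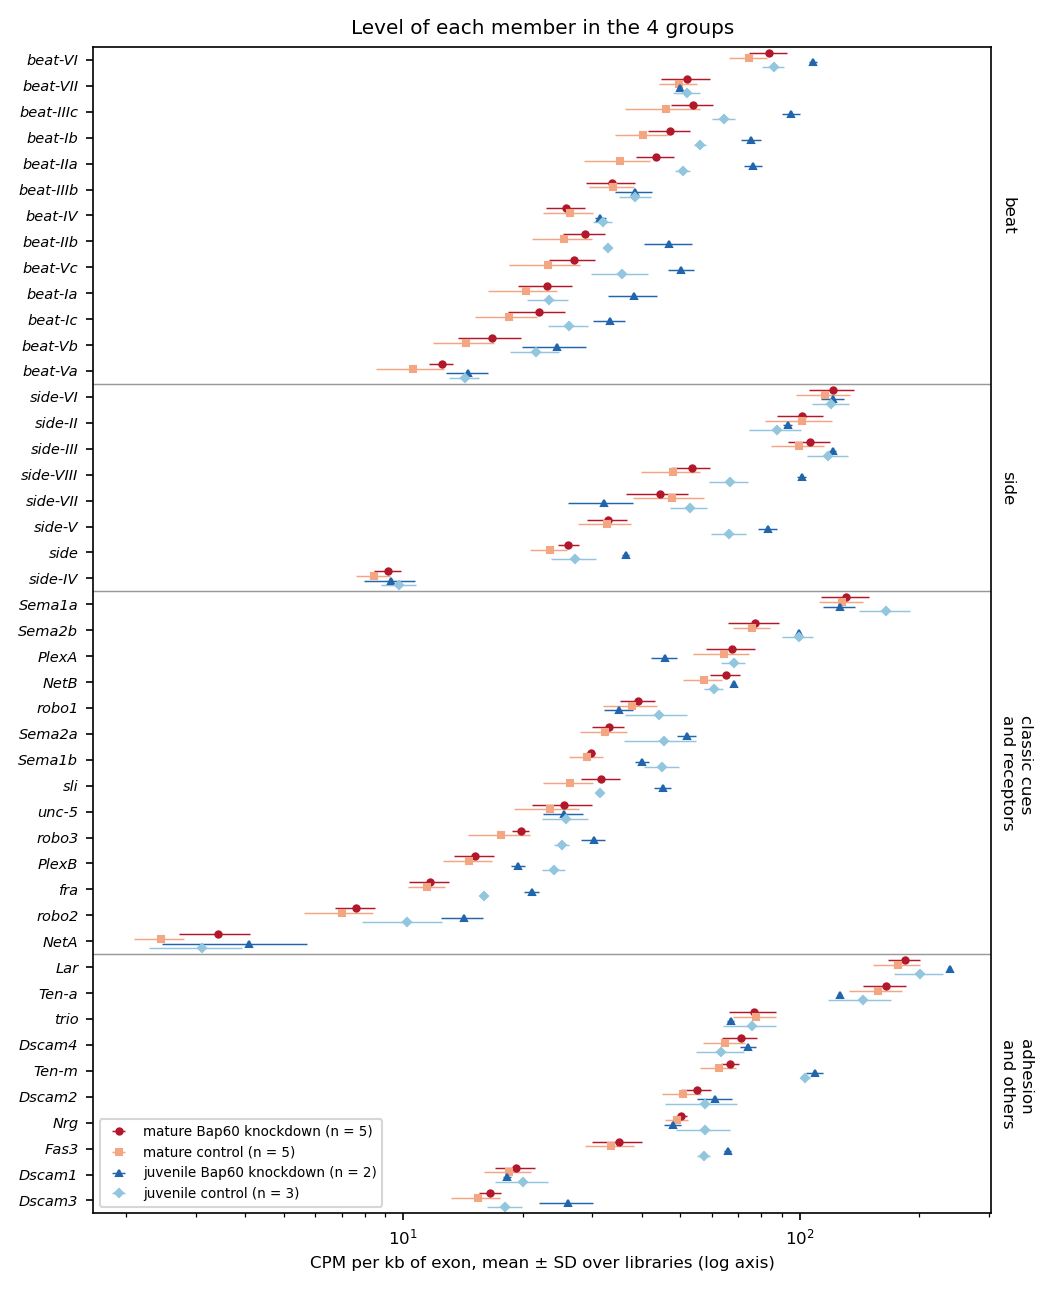
Mean level per kilobase of exon (log scale) of each detected member in the 4 groups, as mean ± SD over libraries (n = 5, 5, 2 and 3), with members sorted by mature control level within each family. Lar stands highest of all, and NetA, at 2.45 CPM per kilobase in mature control, lowest.

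Several of the best expressed genes passed no test. Side-VI had 973, 739, 1027, 836 and 874 CPM in mature knockdown libraries against 929 and 849 in juvenile knockdown ones. In control flies side-VI had 966, 654, 880, 777 and 962 CPM in mature libraries against 776, 950 and 923 in juvenile ones. Side-II had 604, 455, 612, 509 and 492 CPM in mature knockdown libraries against 504 and 484 in juvenile knockdown ones. In control flies side-II had 651, 417, 602, 437 and 565 CPM in mature libraries against 390, 528 and 475 in juvenile ones. Side-III had 1015, 769, 1007, 828 and 876 CPM in mature knockdown libraries against 1042 and 1013 in juvenile knockdown ones. In control flies side-III had 1000, 663, 857, 791 and 921 CPM in mature libraries against 870, 1105 and 1031 in juvenile ones. The ranges of the ages overlapped for all 3 genes in both genotypes, and none passed the test in any comparison. Beat-VII, second among beat genes per kilobase in mature control but lower in the order of the other groups, had 355, 247, 356, 303 and 333 CPM in mature knockdown libraries against 307 and 305 in juvenile knockdown ones. In control flies beat-VII had 337, 255, 299, 299 and 333 CPM in mature libraries against 297, 345 and 314 in juvenile ones. Its ranges also overlapped throughout. Sema1a had 1385, 1199, 1634, 1182 and 1268 CPM in mature knockdown libraries against 1362 and 1197 in juvenile knockdown ones. In control flies Sema1a had 1345, 1104, 1497, 1160 and 1418 CPM in mature libraries against 1402, 1873 and 1763 in juvenile ones. Ten-a had 3249, 2427, 3115, 2615 and 2680 CPM in mature knockdown libraries against 2135 and 2173 in juvenile knockdown ones. In control flies Ten-a had 3038, 2163, 2965, 2290 and 2905 CPM in mature libraries against 1959, 2796 and 2630 in juvenile ones. For Sema1a both juvenile knockdown libraries lay below the 3 juvenile controls, and for Ten-a they lay below all 5 mature knockdown libraries, but neither gene passed the test in any comparison.

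Age was the comparison in which the largest number of these genes passed the test. The mature and juvenile libraries also differed as sets. Entries outside genes took 1.12 to 1.65% of reads in mature and 1.66 to 2.84% in juvenile libraries. Only the mature libraries had an entry for the Unc84 tag. Age cannot be told apart from such differences between the sets, and their part was not tested. In knockdown flies 23 of 45 members fell in mature against juvenile libraries and 1, PlexA, rose, where 16.4% of the 11997 genes tested fell and 17.8% rose, 34.2% in all (52% of the calls higher, but 42.8% with RLE and 42.6% with upper-quartile scaling; edgeR quasi-likelihood test, Benjamini-Hochberg adjusted p under 0.05 over all genes tested). In control flies 18 members fell and none rose, against 9.87% of all genes falling and 12.2% rising, 22% in all (55.2% of the calls higher, 46.2% with RLE scaling). The median log2 change of the members was −0.36 in knockdown and −0.25 in control flies, beside −0.07 and −0.06 over all genes tested. The calls in the 2 genotypes shared 16 members, all lower in mature flies, and no member passed the test of the difference between the genotypes, which is given further on. In knockdown flies 24 members were lower without overlap between the ages (53.3%, beside 26.9% of all genes) and 2 were higher (4.44%, beside 24.5%). In control flies 16 members were lower without overlap (35.6%, beside 10.9%) and 0 were higher (beside 15.6%).

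By family, the falls in knockdown flies took in 9 of 13 beat genes, 3 of 8 side genes, 7 of 14 classic cues and receptors and 4 of 10 adhesion genes, with median log2 changes of −0.59, −0.11, −0.36 and −0.11. In control flies they took in 7 of 13, 2 of 8, 7 of 14 and 2 of 10, with medians of −0.43, −0.21, −0.38 and −0.18. Beat genes and classic cues thus had larger shares of falling genes than side and adhesion genes; the differences between families were not tested. Summed over the family, beat genes came to 1660 ± 159 CPM in mature knockdown (SD, n = 5) against 2322 ± 71 CPM in juvenile knockdown (n = 2), and 1489 ± 188 CPM in mature control (n = 5) against 1856 ± 98.9 CPM in juvenile control (n = 3). The knockdown comparison kept 11 calls without juvenile knockdown replicate 1, PlexA not among them, and 13 in limma-voom with a weight per age. Among its calls, Lar and Sema2b stood in 9 of 24 alternatives each and beat-VI in 14. The control comparison kept 10 without mature control replicate 3, 11 without juvenile control replicate 2, and 5 in limma-voom with a weight per age, namely side-V, Fas3, Ten-m, PlexB and Sema1b.

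**Figure D2:**
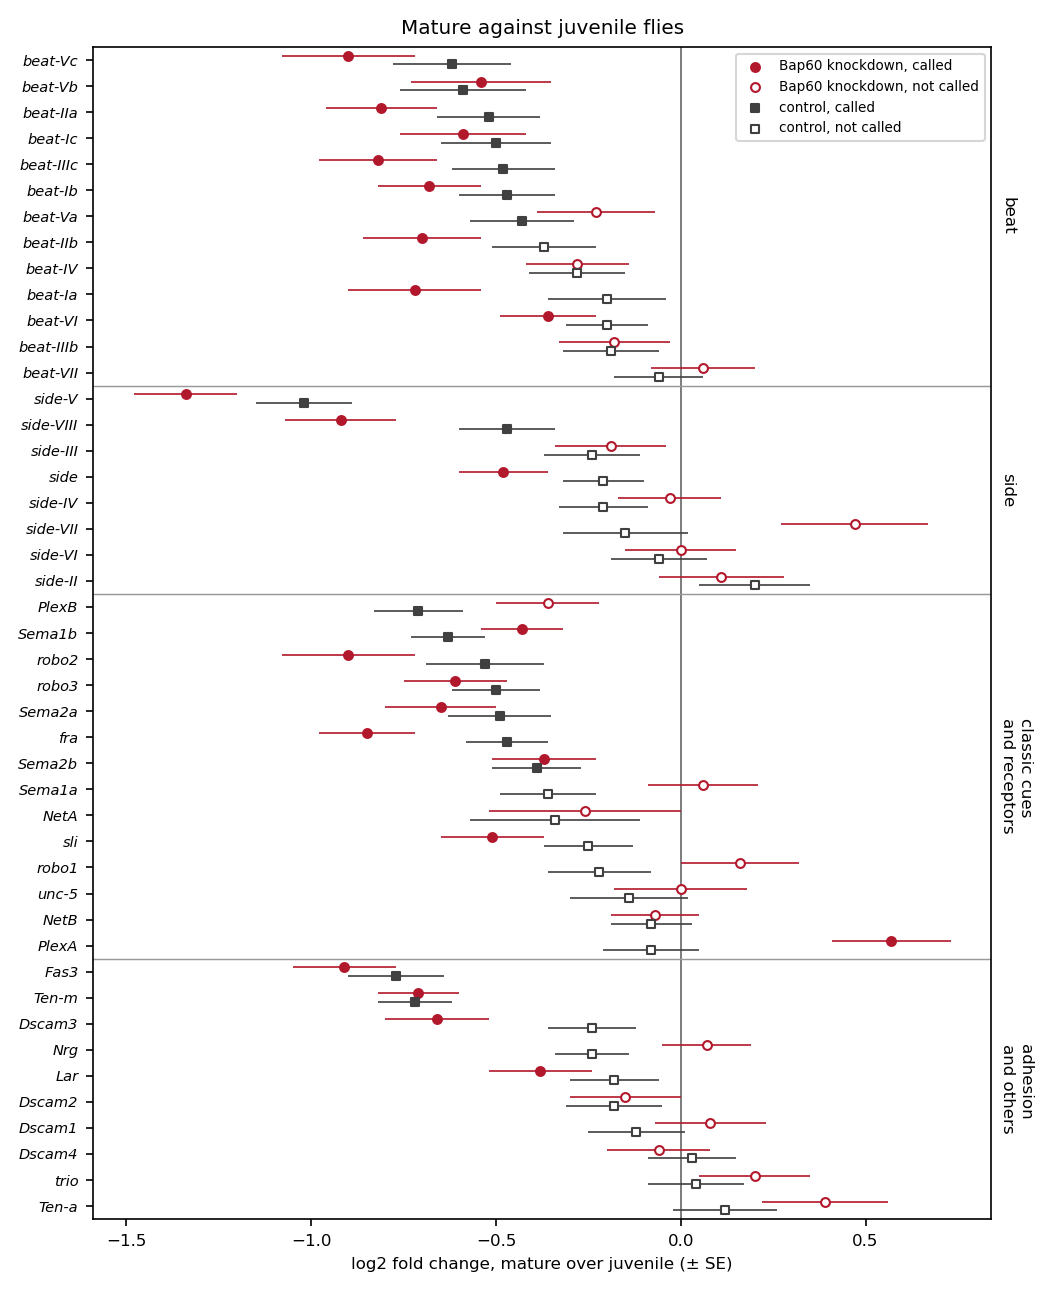
Log2 change of each tested member, mature over juvenile, in knockdown and in control flies, with bars of 1 standard error and filled points for adjusted p under 0.05. Side-V has the largest fall in both genotypes, −1.34 and −1.02. PlexA, at 0.57 in knockdown flies, is the only member called higher.

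Marker genes of other cells shifted along with age, and not all members of a list moved one way. The other-neuron list, 8 of whose 10 genes were tested and in which Tdc2 was at 0, summed to 1300 to 1784 CPM in mature knockdown against 1472 to 2814 CPM in juvenile knockdown, and to 1140 to 2492 CPM in mature control against 3842 to 4435 CPM in juvenile control. The lower sums rested on ple, the tyrosine hydroxylase gene of dopaminergic neurons, which averaged 173 CPM in mature knockdown against 1237 in juvenile knockdown and 543 CPM in mature control against 3035 in juvenile control. In knockdown flies 2 of the 8 passed as higher and 1 as lower with a median log2 of 0.49, and in control flies 1 and 1 with a median of −0.19.

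The glial list, with moody and alrm at 0, summed to 777 to 1120 CPM in mature knockdown against 1245 to 1464 CPM in juvenile knockdown, and to 799 to 1221 CPM in mature control against 1584 to 1658 CPM in juvenile control. Gs2 gave the largest part of that, with 508 CPM in mature knockdown against 876 in juvenile knockdown and 541 CPM in mature control against 997 in juvenile control. Of 9 tested glial genes 3 passed as higher and 2 as lower in knockdown flies (median log2 0.18), and 1 as higher and 3 as lower in control flies (median −0.55). Fat body markers summed to 1863 to 3619 CPM in mature knockdown against 335 to 386 CPM in juvenile knockdown, and to 2133 to 2899 CPM in mature control against 221 to 283 CPM in juvenile control. Those sums were mostly apolpp, with 2878 CPM in mature knockdown against 161 in juvenile knockdown and 2303 CPM in mature control against 144 in juvenile control, while of the 12 fat body genes 3 passed as higher and 6 as lower in knockdown flies (median log2 −1.77), and 4 and 1 in control flies (median −0.19).

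Photoreceptor markers were higher for 8 of 12 in mature knockdown flies and, in mature control flies, 3 of 12 were higher and 1 lower. Neuroblast and dividing-cell markers, with ase and mira at 0, summed to at most 44 CPM in any library, and 1 of 8 passed as lower in each genotype. No muscle marker passed in either genotype. Of the 15 Kenyon cell markers, 7 rose in mature knockdown flies and 1 in mature control flies, and none fell. The part of these lists in the falls of the guidance genes was not tested.

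The members that fell in control flies had a median of 5046 bases of exon and a median level of 151 CPM, and the other members 7913 bases and 314 CPM. All genes tested at or above the level of the lowest member were also cut into 4 equal groups by exon length. The groups were not matched in level, with a median of 232 CPM in the longest and 22.9 CPM in the shortest. In knockdown flies 22.5% of the longest group and 13.4% of the shortest were called lower, and in control flies 18% and 11.5%. The shares called higher were 23.1% and 41.6% in knockdown flies, and 13.8% and 24.4% in control flies.

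Among the side ligands the change with age was carried by side-V and side-VIII. Side-V (chromosome 2R, 23163012 to 23203973) had 158, 182, 218, 196 and 190 CPM in mature knockdown libraries against 460 and 496 in juvenile knockdown ones. In control flies side-V had 162, 173, 171, 233 and 200 CPM in mature libraries against 380, 421 and 344 in juvenile ones. All mature values lay below every juvenile one, 2.53-fold lower in knockdown (log2 −1.34, SE 0.14, adjusted p = 4.13e-06) and 2.03-fold lower in control flies (log2 −1.02, SE 0.13, adjusted p = 2.13e-05). Side-VIII (2R, 20424338 to 20478951) had 258, 260, 325, 304 and 324 CPM in mature knockdown libraries against 568 and 547 in juvenile knockdown ones. In control flies side-VIII had 271, 233, 205, 306 and 304 CPM in mature libraries against 321, 402 and 376 in juvenile ones. It fell in both genotypes (log2 −0.92, SE 0.15, adjusted p = 2.06e-04 in knockdown; log2 −0.47, SE 0.13, adjusted p = 0.0157 in control). The founding member side (3R, 27375088 to 27437482), the attractant of embryonic motor axons, had 283, 300, 330, 296 and 318 CPM in mature knockdown libraries against 433 and 421 in juvenile knockdown ones. In control flies side had 278, 262, 230, 301 and 301 CPM in mature libraries against 270, 341 and 342 in juvenile ones. Its 5 mature knockdown values lay below both juvenile ones and passed the test (log2 −0.48, SE 0.12, adjusted p = 0.00654), while the control groups overlapped (log2 −0.21, adjusted p = 0.176). Side-II, side-III, side-IV, side-VI and side-VII did not pass in either genotype.

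Beat genes that fell came from several gene clusters. Beat-Vc had 52.1, 52.1, 66.5, 63.2 and 69 CPM in mature knockdown libraries against 120 and 107 in juvenile knockdown ones. In control flies beat-Vc had 52.5, 43, 40.3, 60.7 and 64.6 CPM in mature libraries against 80.5, 93.5 and 66.9 in juvenile ones. The ages did not overlap in either genotype (log2 −0.90, SE 0.18, adjusted p = 0.00102 in knockdown; log2 −0.62, SE 0.16, adjusted p = 0.00905 in control). Beat-Vc, beat-Va and beat-Vb lie in that order on chromosome arm 3R, with gaps of 57.3 and 67.6 kb. Beat-Vb had 27.6, 26.4, 41, 33.3 and 30.8 CPM in mature knockdown libraries against 52.2 and 40.2 in juvenile knockdown ones, and 26.7, 23.3, 22.6, 29.3 and 34.1 in mature control against 47.3, 36 and 39.5 in juvenile control. It passed as lower in knockdown (log2 −0.54, adjusted p = 0.0373) and in control flies (log2 −0.59, adjusted p = 0.0169). The ages overlapped in knockdown flies, where the call stood in 17 of 24 alternatives. Beat-Va had 38.3, 38.8, 43.1, 36.9 and 43 CPM in mature knockdown libraries against 50.8 and 42.8 in juvenile knockdown ones, and 27.3, 30.8, 29.3, 39.2 and 42.2 in mature control against 48.2, 47.5 and 41.1 in juvenile control, and passed the test in control flies (log2 −0.43, adjusted p = 0.0373), although its control ranges overlapped; the knockdown change was log2 −0.23 (adjusted p = 0.298). The difference between these 2 changes is the difference of knockdown effects given below and did not pass.

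Beat-IIa and beat-IIb, which bind Side-IV in the optic lobe, sit 55.0 kb apart on 3R. Beat-IIa had 113, 138, 149, 143 and 148 CPM in mature knockdown libraries against 233 and 251 in juvenile knockdown ones. In control flies beat-IIa had 104, 103, 85.7, 132 and 136 CPM in mature libraries against 157, 169 and 157 in juvenile ones. It fell in both genotypes (log2 −0.81, SE 0.15, adjusted p = 6.71e-04 in knockdown; log2 −0.52, SE 0.14, adjusted p = 0.00963 in control), with no overlap between ages. Beat-IIb had 57.8, 72, 77.4, 67.8 and 78.7 CPM in mature knockdown libraries against 126 and 104 in juvenile knockdown ones. In control flies beat-IIb had 58.4, 60.5, 47.7, 71.6 and 74.7 CPM in mature libraries against 80.9, 78.4 and 82.4 in juvenile ones. It was lower without overlap in both, and passed in knockdown flies (log2 −0.70, adjusted p = 0.00248) but not in control flies (log2 −0.37, adjusted p = 0.0697). Beat-IIIc had 166, 216, 227, 214 and 228 CPM in mature knockdown libraries against 385 and 357 in juvenile knockdown ones. In control flies beat-IIIc had 155, 157, 145, 214 and 229 CPM in mature libraries against 234, 265 and 254 in juvenile ones. Its fall was log2 −0.82 in knockdown (adjusted p = 0.00102) and log2 −0.48 in control flies (adjusted p = 0.0232).

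The cluster of beat-Ib, beat-Ic and beat-Ia lies on chromosome arm 2L, with gaps of 37.9 and 8.3 kb. Beat-Ia (2L, 16049965 to 16081684), the receptor for Side, had 55.4, 57.8, 81.3, 68.3 and 69 CPM in mature knockdown libraries against 121 and 98.6 in juvenile knockdown ones. In control flies beat-Ia had 57.8, 48.4, 45.5, 70.1 and 70.3 CPM in mature libraries against 65, 75.5 and 60.2 in juvenile ones. Its fall passed in knockdown flies (log2 −0.72, SE 0.18, adjusted p = 0.00514), and in control flies it was log2 −0.20 (adjusted p = 0.393) with overlapping ages. Beat-Ib and beat-Ic fell in both genotypes, by log2 −0.68 and −0.59 in knockdown and −0.47 and −0.50 in control flies. Beat-VI had 290, 260, 347, 284 and 300 CPM in mature knockdown libraries against 375 and 388 in juvenile knockdown ones, and 292, 224, 258, 254 and 291 in mature control against 282, 317 and 313 in juvenile control, and fell in knockdown flies (log2 −0.36, adjusted p = 0.0322; lost in 8 of the fits without 1 library). Beat-IIIb, beat-IV and beat-VII passed in neither genotype, and beat-IIIb and beat-VII showed log2 changes between −0.19 and 0.06.

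**Figure D3:**
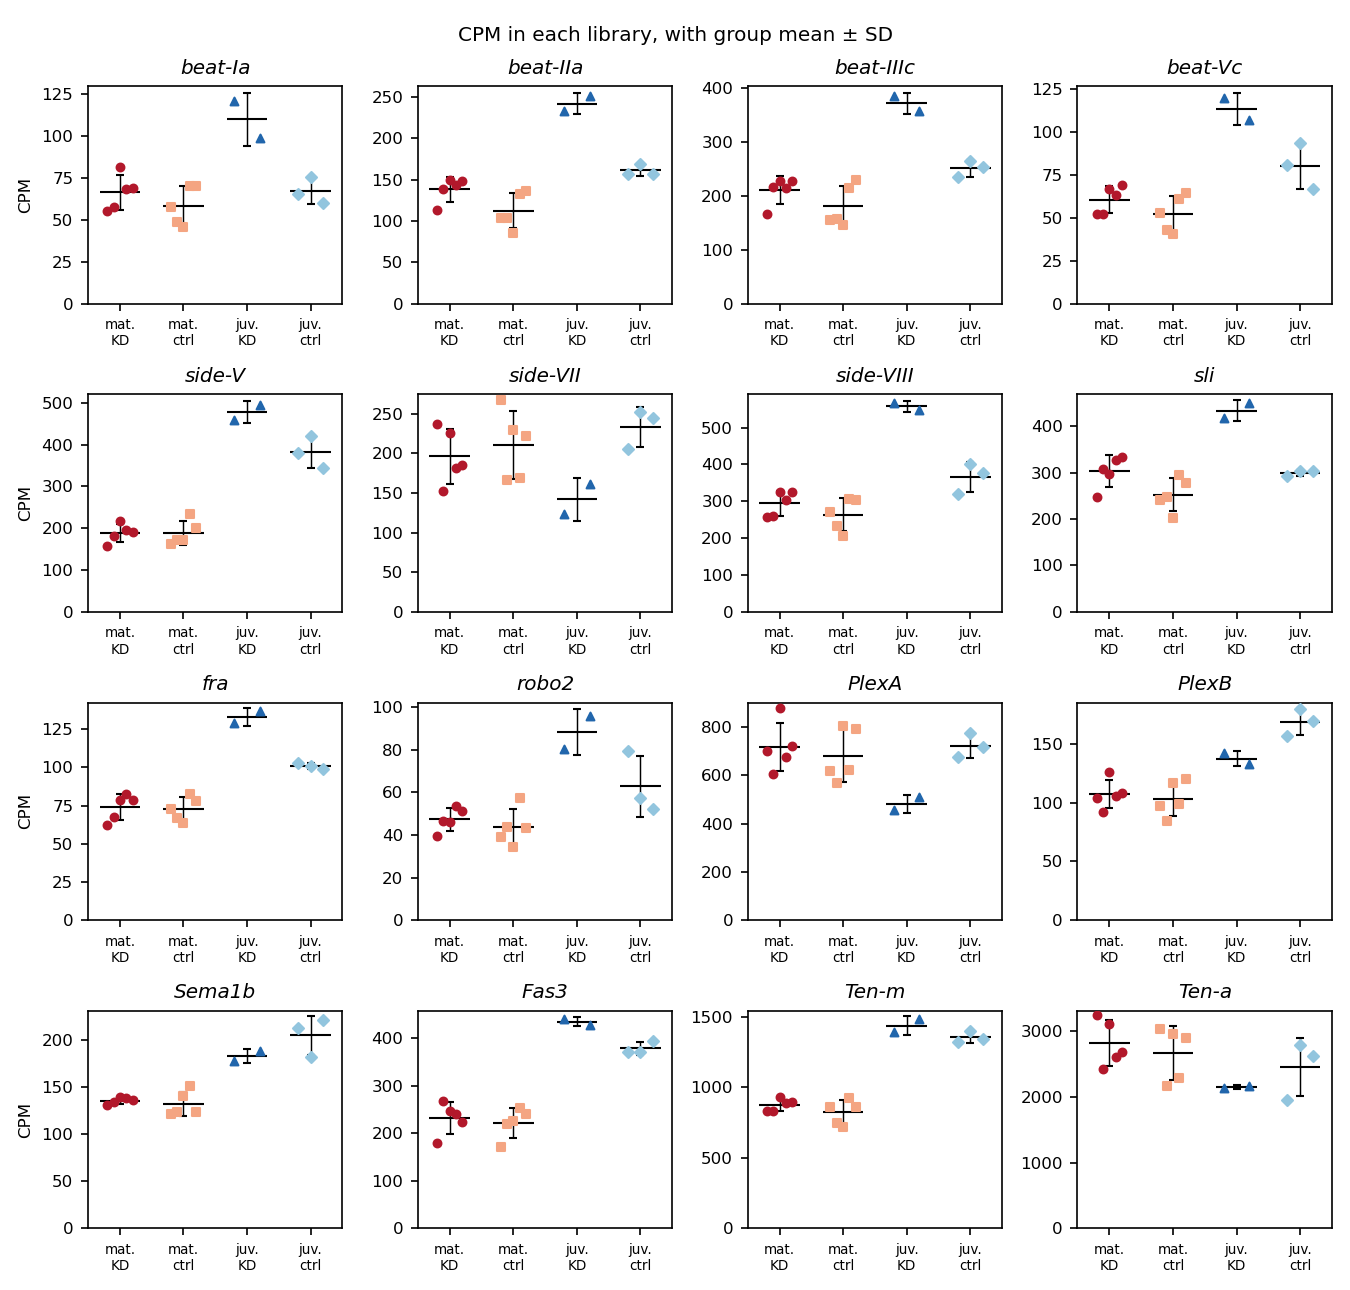
CPM (vertical axis, from 0) of 16 members in every library, 1 point per library, with group means ± SD as black bars (KD, knockdown; ctrl, control). Values of side-V lie between 344 and 496 CPM in juvenile and between 158 and 233 CPM in mature libraries.

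Of the Slit receptors, robo2 and robo3 passed the test with age and robo1 did not. Robo2 had 39.3, 46.6, 46.3, 53.5 and 51.1 CPM in mature knockdown libraries against 80.6 and 95.9 in juvenile knockdown ones. In control flies robo2 had 38.9, 43.9, 34.2, 57.3 and 43.5 CPM in mature libraries against 79.3, 57.5 and 52.2 in juvenile ones. Its fall passed in both genotypes (log2 −0.90, adjusted p = 0.0013 in knockdown, and log2 −0.53, adjusted p = 0.0258 in control). The control ages overlapped, and the control call stood in 18 of 24 alternatives. It was lost without juvenile control replicate 1 (edgeR, adjusted p = 0.173). Of the exon bases of robo2, 20% are also annotated to a lncRNA on the same strand and 22.9% face an antisense RNA. The counting of such bases is not given in the sources used here. Robo3, 83.5 kb away on 2L, had 133, 135, 141, 145 and 149 CPM in mature knockdown libraries against 205 and 226 in juvenile knockdown ones. In control flies robo3 had 130, 111, 95.7, 146 and 147 CPM in mature libraries against 170, 179 and 186 in juvenile ones. Its fall passed in both genotypes (log2 −0.61, SE 0.14, adjusted p = 0.00274 in knockdown; log2 −0.50, SE 0.12, adjusted p = 0.00696 in control). Robo1 had 297, 246, 290, 236 and 259 CPM in mature knockdown libraries against 252 and 224 in juvenile knockdown ones, and 317, 209, 270, 239 and 248 in mature control against 238, 330 and 331 in juvenile control, and changed by log2 0.16 in knockdown and −0.22 in control flies with neither passing. Slit itself (sli) had 248, 309, 298, 328 and 335 CPM in mature knockdown libraries against 418 and 450 in juvenile knockdown ones. In control flies sli had 242, 247, 202, 296 and 278 CPM in mature libraries against 293, 304 and 304 in juvenile ones. It fell in knockdown flies (log2 −0.51, SE 0.14, adjusted p = 0.00786) and not by the test in control flies (log2 −0.25, adjusted p = 0.148).

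Of the Netrin pathway, the attractive receptor gene frazzled (fra) moved and its ligands did not pass. Fra had 62.3, 67.7, 78.3, 82.3 and 78.9 CPM in mature knockdown libraries against 129 and 137 in juvenile knockdown ones. In control flies fra had 72.8, 67, 63.6, 82.5 and 77.8 CPM in mature libraries against 103, 101 and 98.6 in juvenile ones. Juvenile values stood above all mature ones in both genotypes (log2 −0.85, SE 0.13, adjusted p = 1.15e-04 in knockdown; log2 −0.47, SE 0.11, adjusted p = 0.00619 in control). NetB, which lies 32.1 kb from NetA on the X chromosome, had 540, 478, 601, 512 and 525 CPM in mature knockdown libraries against 555 and 558 in juvenile knockdown ones, and 485, 388, 498, 445 and 521 in mature control against 469, 524 and 492 in juvenile control, with log2 changes of −0.07 in knockdown and −0.08 in control. NetA had 7.59, 11.7, 11.8, 12.1 and 14 CPM in mature knockdown libraries against 17.5 and 9.84 in juvenile knockdown ones, and 7.27, 9.71, 8.15, 6.84 and 8.98 in mature control against 13.5, 8.65 and 8.97 in juvenile control, at the lowest level of all members. The repulsive receptor gene unc-5 had 167, 105, 139, 133 and 122 CPM in mature knockdown libraries against 123 and 144 in juvenile knockdown ones, and 157, 95, 124, 115 and 120 in mature control against 117, 136 and 153 in juvenile control, with log2 changes of at most 0.14 in size.

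Among semaphorins and plexins, the secreted pair Sema2a and Sema2b, the transmembrane Sema1b and the plexin PlexB were lower in mature flies. Sema1b had 131, 134, 140, 138 and 136 CPM in mature knockdown libraries against 178 and 188 in juvenile knockdown ones. In control flies Sema1b had 122, 124, 141, 151 and 124 CPM in mature libraries against 213, 182 and 221 in juvenile ones. It fell in both genotypes (log2 −0.43, SE 0.11, adjusted p = 0.00733 in knockdown; log2 −0.63, SE 0.10, adjusted p = 1.98e-04 in control). Sema2a had 143, 123, 157, 132 and 134 CPM in mature knockdown libraries against 225 and 208 in juvenile knockdown ones, and 144, 102, 146, 137 and 143 in mature control against 145, 214 and 210 in juvenile control, and fell by log2 −0.65 in knockdown and −0.49 in control flies; juvenile control replicate 1 overlapped the mature controls. Sema2b had 443, 331, 474, 382 and 364 CPM in mature knockdown libraries against 516 and 514 in juvenile knockdown ones, and 429, 326, 422, 377 and 404 in mature control against 472, 562 and 504 in juvenile control. It fell by log2 −0.37 in knockdown flies, a call lost in 11 of the fits without 1 library. In control flies it fell by log2 −0.39, a call lost in 6 such fits and in 4 other settings. PlexB, their receptor, 5.5% of whose exon bases face an antisense RNA on the opposite strand, had 104, 92.4, 126, 106 and 108 CPM in mature knockdown libraries against 142 and 133 in juvenile knockdown ones. In control flies PlexB had 97, 84.3, 117, 99.3 and 120 CPM in mature libraries against 157, 180 and 170 in juvenile ones. Its fall passed in control flies (log2 −0.71, SE 0.12, adjusted p = 4.64e-04) and in knockdown flies the change was log2 −0.36 (adjusted p = 0.0543), again without overlap. PlexA, the receptor of Sema1a and Sema1b, had 702, 607, 881, 677 and 722 CPM in mature knockdown libraries against 457 and 510 in juvenile knockdown ones. In control flies PlexA had 618, 568, 807, 622 and 793 CPM in mature libraries against 675, 776 and 717 in juvenile ones. It rose in mature knockdown flies (log2 0.57, SE 0.16, adjusted p = 0.0104), its 2 juvenile knockdown libraries being the lowest of all 15, and changed by log2 −0.08 in control flies.

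Of the adhesion proteins, Fas3 and Ten-m moved most. Fas3, a homophilic adhesion protein, had 179, 267, 247, 241 and 223 CPM in mature knockdown libraries against 441 and 428 in juvenile knockdown ones. In control flies Fas3 had 170, 220, 226, 252 and 240 CPM in mature libraries against 371, 370 and 394 in juvenile ones. Its mature values were below every juvenile one (log2 −0.91, SE 0.14, adjusted p = 1.80e-04 in knockdown; log2 −0.77, SE 0.13, adjusted p = 3.69e-04 in control). Ten-m, a teneurin that matches synaptic partners in the olfactory system, had 831, 828, 931, 888 and 898 CPM in mature knockdown libraries against 1387 and 1482 in juvenile knockdown ones. In control flies Ten-m had 861, 743, 720, 920 and 860 CPM in mature libraries against 1322, 1399 and 1341 in juvenile ones. It too fell in both (log2 −0.71, SE 0.11, adjusted p = 1.30e-04 in knockdown; log2 −0.72, SE 0.10, adjusted p = 5.05e-05 in control), while its relative Ten-a changed by log2 0.39 and 0.12 and did not pass. Of the exon bases of Ten-m, 5% are also annotated to a lncRNA on the same strand. Dscam3, one of the Dscam surface proteins, had 138, 127, 143, 148 and 150 CPM in mature knockdown libraries against 198 and 247 in juvenile knockdown ones. In control flies Dscam3 had 148, 114, 109, 147 and 137 CPM in mature libraries against 144, 173 and 146 in juvenile ones. Its fall passed in knockdown flies (log2 −0.66, SE 0.14, adjusted p = 0.00149). Lar had 1985, 1604, 2062, 1936 and 1903 CPM in mature knockdown libraries against 2474 and 2463 in juvenile knockdown ones, and 2015, 1426, 1834, 1841 and 2040 in mature control against 1755, 2331 and 2155 in juvenile control, and fell in knockdown flies (log2 −0.38, adjusted p = 0.0459), a call lost in 12 of the fits that left out 1 library. Dscam1, Dscam2, Dscam4, the L1-type adhesion gene Nrg and the guanine exchange factor gene trio passed in neither genotype.

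**Figure D4:**
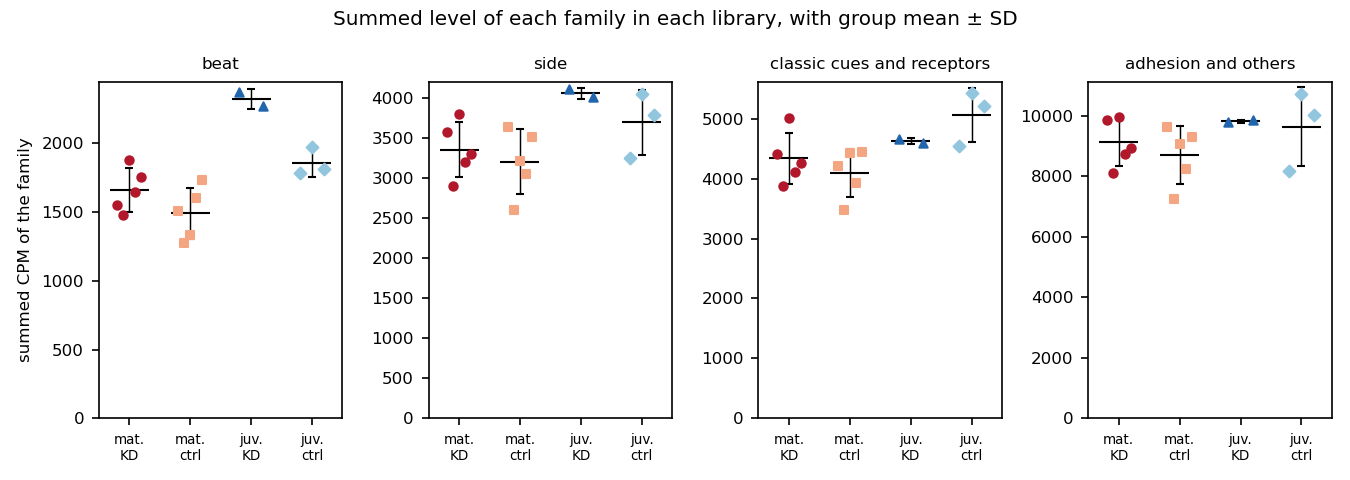
CPM summed over the tested members of each family, 1 point per library, with group means ± SD as black bars. Beat sums are 1480 to 1879 CPM in mature knockdown and 1278 to 1731 CPM in mature control, and 2272 and 2372 CPM in juvenile knockdown against 1784 to 1969 CPM in juvenile control.

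In juvenile flies 7 of 45 members passed the test of knockdown against control, 5 higher and 2 lower. Of the 11739 genes tested 3.3% passed, 1.41% higher and 1.88% lower. Bap60 itself was not shown to be lower in these juvenile knockdown libraries (exact permutation p = 0.3). Of the 13 beat genes 3 rose: beat-Ia (log2 0.75, SE 0.16, adjusted p = 0.0241), beat-IIa (log2 0.62, SE 0.13, adjusted p = 0.0168) and beat-IIIc (log2 0.60, SE 0.13, adjusted p = 0.0225). Side-VIII rose (log2 0.64, SE 0.14, adjusted p = 0.0213) and side-VII fell (log2 −0.69, SE 0.15, adjusted p = 0.0268). Sli rose (log2 0.56, SE 0.13, adjusted p = 0.0293) and PlexA fell (log2 −0.55, SE 0.14, adjusted p = 0.0471). Both juvenile knockdown libraries lay on one side of all 3 control libraries for each of these 7 genes. The genes were called from these same libraries, so this adds no support. Of all genes tested, 15.1% were higher and 15.5% lower without overlap. Side-VII (3R, 9734012 to 9739979), which binds Beat-IV, had 237, 152, 226, 181 and 185 CPM in mature knockdown libraries against 123 and 161 in juvenile knockdown ones. In control flies side-VII had 267, 166, 230, 169 and 222 CPM in mature libraries against 205, 252 and 244 in juvenile ones.

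The median log2 change was 0.38 over the beat genes and 0.10 over side genes. It was 0.12 over the classic cues and 0.12 over the adhesion genes, beside 0.01 over all genes tested. Of the beat genes 12 of 13 were above 0, beside 5971 of the 11739 genes tested. Counting the libraries alone, 19 members were higher without overlap (42.2%, beside 15.1% of all genes) and 4 lower (8.89%, beside 15.5%). Beat-Ib (log2 0.46, adjusted p = 0.0715), beat-IIb (log2 0.55, adjusted p = 0.0617), side (log2 0.46, adjusted p = 0.0969) and Dscam3 (log2 0.56, adjusted p = 0.0516) were higher without passing. With RLE scaling PlexA lost its call (adjusted p = 0.0649). With upper-quartile scaling 8 members rose and 1 fell, and all genes split into 266 higher and 161 lower in place of 166 and 221. None of the 7 calls stood in limma-voom, at adjusted p under 0.01, when any 1 of the 3 control libraries was left out, or without knockdown replicate 1, and 4 stood without knockdown replicate 2. DESeq2 called 14, the 7 among them.

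Marker lists moved in the same comparison. Of the Kenyon cell markers 4 of 15 fell, with a summed level of 11944 and 12479 CPM in juvenile knockdown against 12918 to 18514 CPM in juvenile control. Photoreceptor markers fell in 4 of 12 cases, summing to 3152 and 3809 CPM in juvenile knockdown against 4567 to 5193 CPM in juvenile control. Of 10 muscle markers 4 rose, summing to 15433 and 18745 CPM in juvenile knockdown against 8952 to 12278 CPM in juvenile control. Other-neuron markers summed to 1472 and 2814 CPM in juvenile knockdown against 3842 to 4435 CPM in juvenile control, with 0 of 8 passing. Glial markers summed to 1245 and 1464 CPM in juvenile knockdown against 1584 to 1658 CPM in juvenile control, with 1 of 9 lower, and fat body markers to 335 and 386 CPM against 221 to 283 CPM, with 1 of 12 higher. The sums of these 6 lists did not overlap between the groups. Of all single genes tested, 15.1% were higher and 15.5% lower without overlap in these 2 against 3 libraries. Calls took in 1.41% of all genes as higher and 1.88% as lower. The part of the lists in the changes of the guidance genes was not tested.

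**Figure D5:**
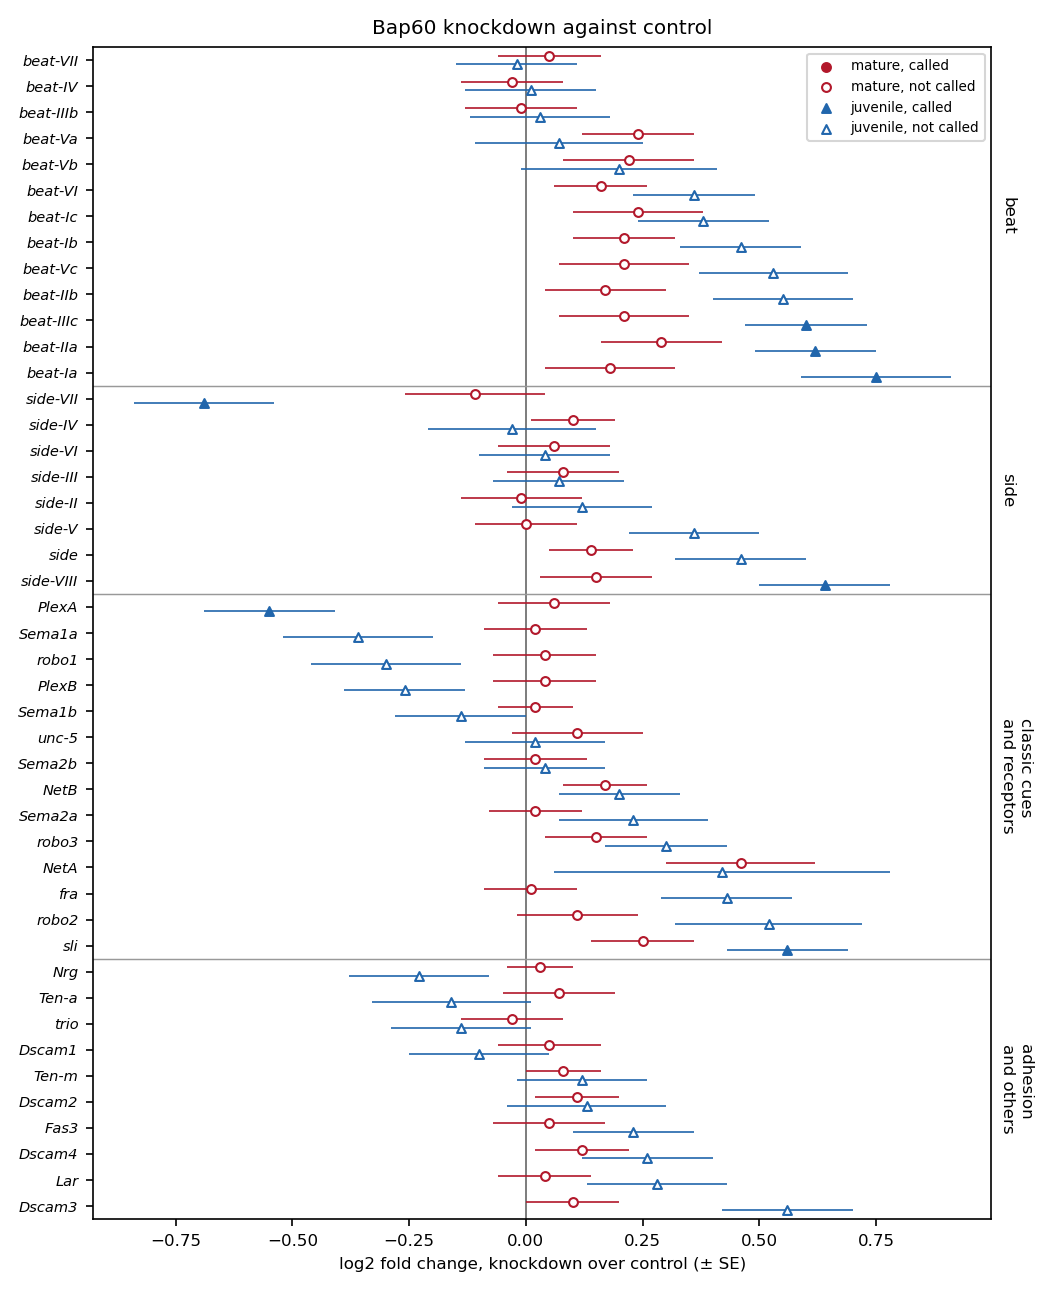
Log2 change of each tested member, knockdown over control, in mature and in juvenile flies, with bars of 1 standard error and filled points for adjusted p under 0.05. In juvenile flies 7 points are filled, beat-Ia highest at 0.75 and side-VII lowest at −0.69, and none in mature flies.

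In mature flies no member passed for the knockdown, where 0.142% of the 9175 genes tested did, 0.0545% higher and 0.0872% lower (edgeR; 3 members had an unadjusted p under 0.05, and DESeq2 called 0). Log2 changes ran from −0.11 to 0.46 with standard errors of 0.07 to 0.16. Of the 45 members 39 were above 0, beside 4336 of the 9175 genes tested. The members were measured in the same libraries, so their signs are not independent. The libraries overlapped for every member (0.872% of all genes were higher and 1.25% lower without overlap). The extremes were NetA (log2 0.46, SE 0.16, adjusted p = 0.42) and side-VII (log2 −0.11, SE 0.15, adjusted p = 0.878). The 7 genes called in juveniles had log2 changes in mature flies of 0.18 for beat-Ia, 0.29 for beat-IIa, 0.21 for beat-IIIc, 0.15 for side-VIII, 0.25 for sli, −0.11 for side-VII and 0.06 for PlexA.

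The difference between the knockdown effects at the 2 ages (mature minus juvenile) passed for no member, where 1.55% of the 11997 genes tested passed, 1.28% higher and 0.275% lower (edgeR; 6 members had an unadjusted p under 0.05, and DESeq2 called 0). It ran from −0.53 for beat-Ia (SE 0.25) to 0.65 for PlexA (SE 0.21, adjusted p = 0.115). The juvenile calls are therefore not shown to differ from the mature changes. Comparisons within an age share no libraries between ages, but the age and knockdown comparisons share libraries, so a gene high in juvenile knockdown libraries enters both.

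Partner genes were set side by side. Side and beat-Ia were both lower in mature than in juvenile knockdown flies (log2 −0.48 and −0.72) and changed by 0.46 and 0.75 with knockdown in juveniles. Side-IV, 17.5% of whose exon bases face an antisense RNA, with 44.7, 43.6, 53, 46.3 and 46.9 CPM in mature knockdown libraries against 52.8 and 42.8 in juvenile knockdown ones, and 48.4, 36.8, 44.1, 42.2 and 45.2 in mature control against 44.6, 50.9 and 54.7 in juvenile control, changed by log2 −0.03 and −0.21 with age and did not pass, while its partners beat-IIa and beat-IIb fell in knockdown flies. Side-VI, which binds Beat-V proteins, showed log2 −0.06 in control flies beside falls of beat-Va, beat-Vb and beat-Vc. Side-VII fell in juvenile knockdown and its partner beat-IV, with 92.5, 70.4, 95.2, 90.6 and 84.8 CPM in mature knockdown libraries against 108 and 103 in juvenile knockdown ones, and 102, 69.7, 82.3, 91.5 and 95.8 in mature control against 107, 113 and 102 in juvenile control, changed there by log2 0.01; in knockdown flies beat-IV was lower in all mature than in both juvenile libraries (log2 −0.28, adjusted p = 0.131). Sema1a and PlexA had log2 changes of −0.36 and −0.55 in juvenile knockdown, and only PlexA passed.

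Other surface and secreted guidance genes outside the 48, 34 of them tested, were also compared with age. In knockdown flies 12 fell and 2 rose (median log2 −0.19, where 16.4% of all genes fell and 17.8% rose), and in control flies 14 fell and none rose (median −0.30, where 9.87% fell and 12.2% rose). Comm2 and comm3, relatives of the Robo-sorting gene commissureless, were lower by log2 −1.18 and −1.35 in knockdown flies. Of 23 tested intracellular effectors 6 fell and 5 rose in knockdown flies and 6 fell and 3 rose in control flies, with medians of −0.01 and 0.05 beside those same shares of all genes. Ena, which lengthens actin filaments, fell by log2 −0.76 in mature knockdown and −0.90 in mature control. In juvenile knockdown flies 1 surface gene rose (CadN2, log2 0.54, adjusted p = 0.041) and 3 fell (comm, trn and Toll-7), 1 effector rose (Rok, log2 0.64, adjusted p = 0.019), and no gene of either list passed in mature knockdown.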

How the data were processed

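Per the labels, nuclei were isolated by INTACT, RNA was taken up with a PicoPure kit, and sequencing used Nugen Ovation libraries. The deposited values are whole counts of reads per gene and library, made by the authors with STAR 2.5.3a and HTSeq 0.7.1 on BDGP6, per the submitters' processing notes. No source used here gives the annotation release, the strand setting or the counting mode, and genes that share exon bases may not be fully separated. Entries outside genes (1.12 to 2.84% of reads) and ambiguous reads (7.08 to 7.75%), and the entry of the Unc84 tag, present in the 10 mature libraries only, were left out of library sizes and tests. Symbols were matched for 17253 of 17559 identifiers. Positions and exon lengths come from assembly BDGP6.54, annotation release 115.

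From the counts, CPM values were scaled by TMM over all 15 libraries. Tests used edgeR 4.0.16 (quasi-likelihood, robust) in R 4.3.3 with at least 10 counts as the filter (total at least 15) and Benjamini-Hochberg adjustment over all genes tested, with a call at adjusted p under 0.05. Knockdown was compared within each age, with 5 or 10 libraries, and the ages and the difference of knockdown effects in 1 fit of all 15. Alternatives used limma 3.58.1 and DESeq2 1.42.0. The procedure was also run on simulated data, with each library drawn independently. That run cannot show how differences shared by several libraries affect the calls, and no result here rests on it. No 2 libraries of a group agreed within sampling noise.

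The members, the marker and pathway lists and the partner pairs were chosen with earlier results of these data known. Values in every library are given for members among the 3 called with the largest change of their family in a comparison, the 2 highest per kilobase of each family, and the partner pairs with a called member. Libraries were grouped by the labels alone.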

Additional observations from a re-analysis of the deposited data

Results flagged for a closer look

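Of 90 groups of 5 mature libraries (45 members in both genotypes), 2 had 1 library set apart by its gap to the nearest other, where chance gives about 1 in 20. Beat-IIIc had 166 CPM in mature knockdown replicate 1, below the 214 to 228 CPM of the other knockdown libraries. Sema2a had 102 CPM in mature control replicate 2, below the 137 to 146 CPM of the other control libraries.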

How the results depend on the processing

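No log2 change of a called member turned its sign under any alternative: of 1155 values 945 kept their call and 210 lost it. These values include the main log2 of each call held to adjusted p under 0.01, where the sign could not turn. For the age comparisons they, and the counts out of 24 alternatives, include fits without a library of the genotype not compared. Such a library enters only through the shared spread, filter and scaling, so these counts are no measure of how firm a call is. In juvenile flies the 7 calls became 0 at adjusted p under 0.01, 12 with the stricter filter, 14 in DESeq2, 0 in limma-voom with a weight per library, 0 with a weight per age and 4 with all 15 libraries in 1 fit; leaving out 1 library gave 0 to 4. The 18 control calls with age became 9 at adjusted p under 0.01, 6 in limma-voom with a weight per library and 5 with a weight per age, and 10 to 19 when 1 library was left out. The 24 knockdown calls with age became 13 in limma-voom with a weight per age and 11 to 25 when 1 library was left out. The cause of these moves was not tested. In mature flies and for the difference of knockdown effects every alternative called 0.

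With the replicate block, 1 member was called in juveniles, 19 in controls with age, 24 in knockdowns with age and 0 in the other 2 comparisons. Correlations of deviations between same-numbered libraries ran from −0.317 to 0.275, and from −0.003 to 0.275 between mature knockdown and mature control. For the knockdown in mature flies the block called 114 of all genes tested, in place of 13. Of the members 8 had an unadjusted p under 0.05 there, in place of 3 (edgeR). These values do not settle whether equal numbers pair the libraries, and the block counts say nothing of the size of the effects.

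RLE scaling moved the median of all genes by −0.11 (log2) in knockdown flies with age, and upper-quartile scaling by −0.10 there and by −0.11 for the difference of effects, whose calls split into 64 higher and 38 lower in place of 153 and 33. Under both, PlexA rose and 25 or 24 members fell with age in knockdown flies. The Bap60 ratio kept its direction under every alternative, including scaling to the total of gene counts, which was chosen after seeing the data. Precision is limited by having 2 juvenile knockdown and 3 juvenile control libraries.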
